A study of Homo sapiens with 6 samples.

Results

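The genes described here encode sensors of double-stranded RNA and cytosolic DNA and the adaptors, inhibitors and transcription factor next to them: RIGI, IFIH1, DHX58, TLR3, MAVS, ADAR, EIF2AK2, CGAS, STING1 and IRF3. They were taken by name from the deposited table, and all 10 matched 1 gene ID each among 61487. The table holds 6 RNA-seq libraries of K562, an established human line from chronic myeloid leukaemia in blast crisis. The 3 sensitive libraries are from K562 cells that respond to azacitidine, a cytidine analogue that traps DNA methyltransferases. The 3 resistant libraries are from K562 cells kept in rising concentrations of the drug for months. Both groups were grown in the same serum-containing medium. All library names carry the tag NT, whose meaning is not spelled out. Beyond this tag, the labels do not say whether drug was present at harvest. They also do not say whether the resistant cells are 1 clone or a mixed population.

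In viral mimicry, loss of DNA methylation lets endogenous retroviruses and other repeats be transcribed, and their double-stranded RNA is read by the cell as if it came from a virus. RIG-I (RIGI) and MDA5 (IFIH1) bind such RNA in the cytosol and signal through MAVS on mitochondria, while TLR3 reads it in endosomes. cGAS (CGAS) reads DNA in the cytosol and makes a second messenger that activates STING (STING1). Both arms meet at IRF3, which switches on interferon genes.

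Of the 10 genes, 2 differed between the groups. STING1, the DNA-sensing adaptor, fell to 28.4% of its sensitive level, and RIGI rose 3.24-fold from a very low level. MAVS, ADAR, EIF2AK2 and IRF3 were well expressed in both groups and did not pass the test. IFIH1, CGAS and TLR3 were near the limit of detection in both. The groups were compared with edgeR's quasi-likelihood test over all 20891 genes that passed a low-count filter, and a gene is called at a Benjamini-Hochberg adjusted p below 0.05. That filter kept 9 of the 10 genes and dropped TLR3. Among the 9, 1 was higher (11.1%) and 1 lower (11.1%), beside 9.83% and 13.1% of all genes tested, so the share called was near that of the whole table.

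Total counts per library were 33007642 to 43006918. Levels are given as CPM, each library's counts relative to its total after TMM scaling. Where a library had no count for a gene, its level could still be as high as 0.0732 to 0.0901 CPM (3 counts, counting error only). On principal component 2 (17.9% of the variance) both replicates 3 lay away from the remaining libraries. Libraries also differed in how levels depended on exon length, with rank correlations between a library's deviation and length of −0.291 (sensitive replicate 3) to 0.366 (resistant replicate 1). Of 12 erythroid and megakaryocytic genes listed for K562, 11 passed the filter. The list summed to 503 to 601 CPM in sensitive and 417 to 784 CPM in resistant libraries. HBE1 had 2 counts in all sensitive and 24 in all resistant libraries and was not tested. HBA2 was higher in resistant cells (edgeR adjusted p = 0.00288), LMO2 was lower (0.00583), and the other 9 did not pass. The labels call the cells myeloblasts, but of 5 myeloblast genes CTSG had no counts, and ELANE and MPO had at most 4 in any library. AZU1 totalled 433 counts in the sensitive and 272 in the resistant group, and PRTN3, with 155 and 31, was lower in resistant cells (edgeR adjusted p = 0.0253). The list summed to between 2.23 and 6.66 CPM.

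**Figure D1:**
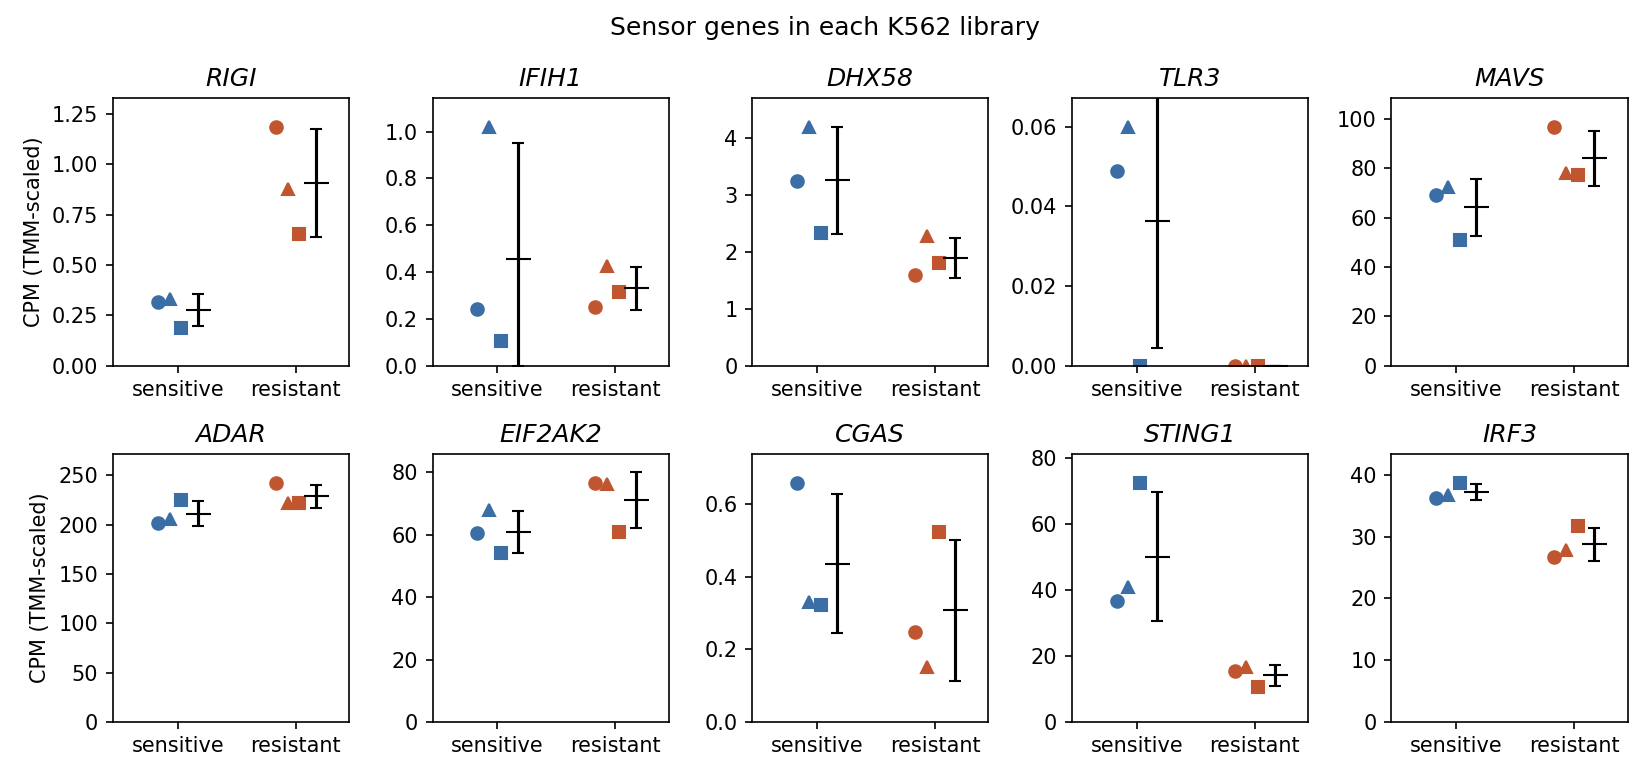
TMM-scaled CPM of the 10 sensor genes in each library, each panel with its own axis from 0. Circles, triangles and squares are replicates 1, 2 and 3, and black marks are the mean and SD of 3 libraries, with bars that would pass below 0 ended there. STING1 sits between 36.7 and 72.5 CPM in sensitive and between 10.6 and 16.7 CPM in resistant libraries, and RIGI lies below 1.19 CPM throughout.

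RIGI (ENSG00000107201, chromosome 9, 32455705 to 32526324, GRCh38) encodes RIG-I, which recognises short double-stranded RNA with a triphosphate end. It measured 0.317, 0.330 and 0.187 CPM in sensitive replicates 1, 2 and 3 and 1.19, 0.879 and 0.655 CPM in the resistant ones. Every resistant library was above every sensitive one. These levels rest on 31 counts in all sensitive and 103 in all resistant libraries. RIGI rose by 1.69 ± 0.48 on the log2 scale (SE), with an approximate 95% interval of 0.62 to 2.77 and an edgeR adjusted p of 0.0302. The call did not hold without 5 of the 6 libraries. The adjusted p was 0.0915, 0.0775 and 0.0733 when sensitive replicate 1, 2 or 3 was left out, and 0.106 and 0.0952 when resistant replicate 1 or 2 was. Only leaving out resistant replicate 3 kept it (0.0168). Its promoter window, 250 bases before to 50 after the start in RefSeq on GRCh38.p14, held 27 CpG sites. The median over 35114 promoters was 14 and the upper quartile 28.

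IFIH1 (ENSG00000115267, chromosome 2, 162267079 to 162318703) encodes MDA5, which binds long double-stranded RNA such as that of inverted repeats. It measured 0.244, 1.02 and 0.107 CPM in sensitive and 0.249, 0.427 and 0.314 CPM in resistant libraries. Sensitive replicate 2 held 34 of the 48 sensitive counts, and the groups overlapped. The log2 fold change was −0.44, with an interval of −2.14 to 1.25 and an edgeR adjusted p of 0.715, and it changed sign to 0.87 without sensitive replicate 2 (adjusted p = 0.495). The direction of IFIH1 thus changed with 1 library.

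DHX58 (ENSG00000108771, chromosome 17, 42101404 to 42112733) encodes LGP2, a relative of RIG-I and MDA5 that lacks their signalling domains and adjusts MDA5 binding. It measured 3.25, 4.20 and 2.33 CPM in sensitive and 1.60, 2.28 and 1.81 CPM in resistant libraries. The lowest sensitive library stood just above the highest resistant one. The log2 fold change of −0.78 ± 0.32 (SE) did not pass after adjustment (interval −1.50 to −0.06, edgeR adjusted p = 0.114). Without both libraries numbered 3 it passed, at −0.94 with an adjusted p of 0.0157, and over all settings the adjusted p ranged from 0.0157 to 0.460.

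TLR3 (ENSG00000164342, chromosome 4, 186069152 to 186088069), the endosomal receptor for double-stranded RNA, had 2, 2 and 0 counts in the sensitive and none in the resistant libraries. No difference was detectable at this depth. TICAM1, the adaptor through which TLR3 signals, was present at 3.05 CPM in sensitive and 3.17 CPM in resistant cells (log2 fold change 0.06, edgeR adjusted p = 0.907).

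The promoter of IFIH1 carries the pattern of an interferon response element, and a stretch with 2 overlapping matches is shown here. Matches were not scored or ranked. The motif searched was GAAANNGAAA, a core of the sites that interferon regulatory factors and the interferon-activated STAT complex bind, on both strands, where its reverse reads TTTCNNTTTC. Capitals mark 2 overlapping matches on the reverse strand, printed 5′ to 3′ along the gene from 174 to 129 bases before the start, at chr2:162318813-162318858 on the minus strand of GRCh38.p14.

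IFIH1 promoter: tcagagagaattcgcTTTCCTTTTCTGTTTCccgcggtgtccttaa

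Promoter windows were found for 6 of the 10 genes, RIGI, IFIH1, TLR3, MAVS, ADAR and EIF2AK2, and not for DHX58, CGAS, STING1 and IRF3. The motif was in the windows of IFIH1, TLR3 and EIF2AK2, and in 3.57% of all 35114 windows. A second motif, TTCNNNGAA, the palindromic core of STAT dimer sites, was in the window of TLR3 alone among the 6 and in 7.66% of all windows. Its 2 matches there end 170 and 42 bases before the start and share no base with the match of the first motif. A match is a pattern of letters, not a bound site. IFIH1 had 3 matches, 2 of them those printed. Its window held 12 CpG sites, that of TLR3 5, that of EIF2AK2 30 and that of MAVS 34. The levels of the genes with the first motif spanned TLR3, with 4 counts in all, IFIH1, with 86, and EIF2AK2, at 54.2 CPM or more in every library.

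MAVS (ENSG00000088888, chromosome 20, 3846799 to 3876123) encodes the mitochondrial adaptor on which RIG-I and MDA5 converge. It measured 69.1, 72.3 and 51.1 CPM in sensitive and 96.9, 78.2 and 77.2 CPM in resistant libraries. All resistant libraries were above all sensitive ones, but the log2 fold change of 0.39 ± 0.18 (SE) did not pass (interval −0.01 to 0.79, edgeR adjusted p = 0.145). The interval reaches from no difference to 0.79, so a moderate rise is within it.

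ADAR (ENSG00000160710, chromosome 1, 154582057 to 154628013) encodes the enzyme that edits adenosine to inosine in double-stranded RNA and so keeps the cell's own RNA from activating MDA5. It measured 202, 206 and 225 CPM in sensitive and 242, 222 and 221 CPM in resistant libraries. The groups overlapped, at a log2 fold change of 0.12 ± 0.15 (SE; interval −0.22 to 0.46, edgeR adjusted p = 0.624). A change of 2-fold in either direction lies outside that interval.

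EIF2AK2 (ENSG00000055332, chromosome 2, 37099210 to 37157065) encodes PKR, a kinase that stops translation when it binds double-stranded RNA. It measured 60.5, 68.0 and 54.2 CPM in sensitive and 76.6, 76.2 and 60.9 CPM in resistant libraries. Resistant replicate 3 lay among the sensitive libraries, and the log2 fold change of 0.23 ± 0.16 (SE; interval −0.13 to 0.58) did not pass (edgeR adjusted p = 0.340). A lowly counted pseudogene on the opposite strand, ARL14EPP1, shares 401 exon bases with it. Its counts totalled 21 in the sensitive group and 3 in the resistant one. EIF2AK2 also shares 35 exon bases with GPATCH11 on the opposite strand, which measured 59.0 ± 5.30 CPM in sensitive and 44.4 ± 9.36 CPM in resistant cells (SD, n = 3 each).

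CGAS (ENSG00000164430, chromosome 6, 73413515 to 73452276), the cytosolic DNA sensor, measured 0.659, 0.330 and 0.321 CPM in sensitive and 0.249, 0.151 and 0.524 CPM in resistant libraries. The groups overlapped, on 50 and 35 counts (log2 fold change −0.51, interval −1.87 to 0.85, edgeR adjusted p = 0.590). The value was −1.15 without resistant replicate 3, −0.10 without sensitive replicate 1 and −0.17 without resistant replicate 2, and passed in none of these (adjusted p of 0.202, 0.951 and 0.905). On the opposite strand DDX43, a germline helicase gene that shares 180 exon bases with CGAS, rose from 2 counts in all sensitive to 522 in all resistant libraries. The strand setting of the counting is not given in the sources used here, so reads from those shared bases cannot be told apart.

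STING1 (ENSG00000184584, chromosome 5, 139475534 to 139482935) encodes the adaptor in the endoplasmic reticulum that cGAS activates. It measured 36.7, 41.1 and 72.5 CPM in sensitive replicates 1, 2 and 3 and 15.4, 16.7 and 10.6 CPM in the resistant ones. The groups were far apart, and the libraries numbered 3 held both extremes. STING1 fell by 1.82 ± 0.28 on the log2 scale (SE; interval −2.44 to −1.19, edgeR adjusted p = 0.00147), which is 3.52-fold, and ranked 1100 of 20891 genes by p. Without both libraries numbered 3 the log2 fold change was −1.29 (adjusted p = 6.58e-07). Over 19 alternatives it ranged from −2.02 to −1.29, and the adjusted p did not exceed 0.00658. In bulk RNA, fewer cells with the transcript and less transcript per cell cannot be told apart.

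STING1 is abundant in many leukocytes, and the lymphoid markers CD3D and CD3E were lower in the same libraries. CD3D measured 28.2, 18.5 and 95.2 CPM in sensitive and 1.91, 2.36 and 1.57 CPM in resistant libraries, so sensitive replicate 3 was the highest for both genes. CD3E, at 72 counts in sensitive and 3 in resistant cells, was also highest in sensitive replicate 3. Of the 6 lymphoid markers listed, CD3D and CD3E fell and the rest did not pass or were not tested. MS4A1 had no counts and CD2 had 8 in all. The list summed to 24.5 to 103 CPM in sensitive and 9.90 to 11.7 CPM in resistant libraries. The macrophage list was near 0 in both groups, at 0.561 to 1.04 and 0.603 to 0.753 CPM over 5 genes. The part of any other cell type in the STING1 result was not tested.

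IRF3 (ENSG00000126456, chromosome 19, 49659569 to 49665875), the transcription factor at which both arms meet, measured 36.2, 36.7 and 38.7 CPM in sensitive and 26.7, 27.8 and 31.7 CPM in resistant libraries. The groups did not overlap, and the log2 fold change was −0.37 ± 0.15 (SE; interval −0.70 to −0.05), but the edgeR adjusted p was 0.0952. It passed without resistant replicate 3 (−0.47, adjusted p = 0.0355) and without both libraries numbered 3 (−0.43), and with library totals in place of TMM factors it was −0.20 (0.335). BCL2L12, which runs from the same locus on the opposite strand and shares 734 exon bases with IRF3, measured 36.6 ± 2.99 CPM in sensitive and 26.8 ± 2.28 CPM in resistant cells (SD, n = 3 each). Without a known strand setting, reads from the shared bases cannot be assigned to 1 of these genes.

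**Figure D2:**
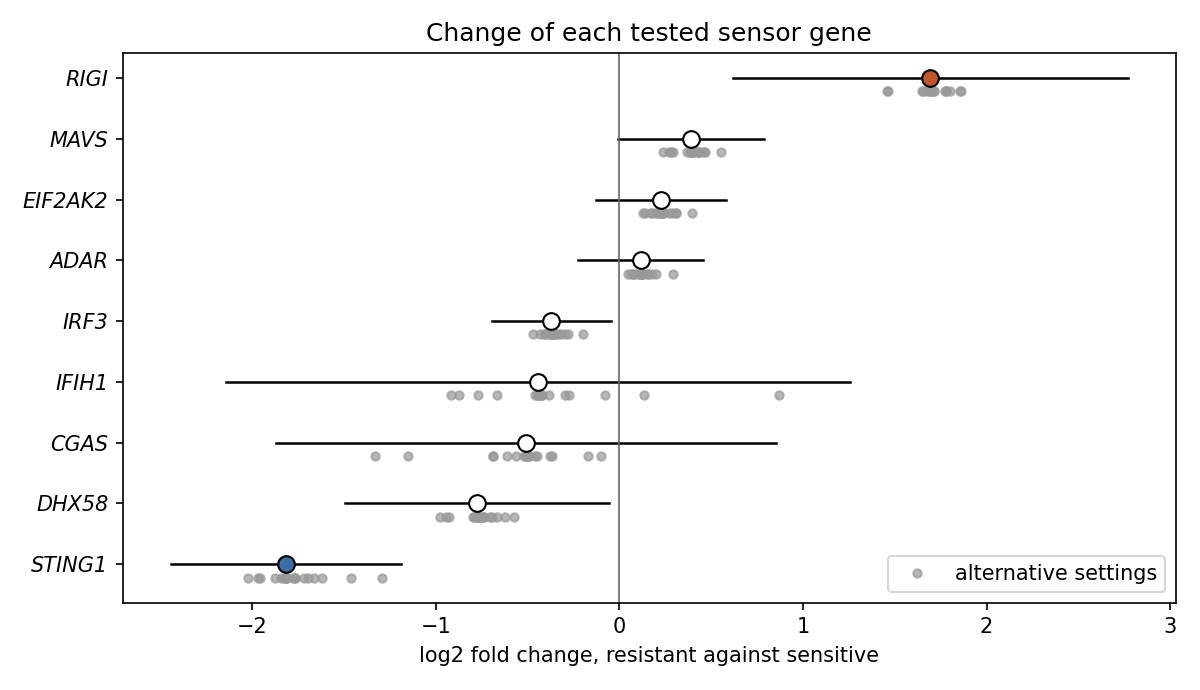
Log2 fold change of the 9 tested sensor genes, resistant against sensitive, with approximate 95% intervals as lines. Filled points have an edgeR adjusted p below 0.05, open points do not, and grey points below each are the values under the other settings. STING1 at −1.82 and RIGI at 1.69 are filled, and the grey points of IFIH1 lie on both sides of 0.

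Across the 9 tested genes, groups did not overlap upward for 2 (RIGI and MAVS) and downward for 3 (DHX58, STING1 and IRF3), beside 18.7% and 21.4% of all tested genes. Their median log2 fold change was −0.37, that of IRF3, beside 0.03 for all tested genes. For each of these 5 genes a two-sided exact permutation test of log2 CPM gave p = 0.1, and no lower p is possible with 3 libraries a group. Groups that do not overlap always give this value, so the test adds nothing to the lack of overlap.

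Exon length moved with the sign of some of these values. MAVS, EIF2AK2 and ADAR, with 11.771, 10.753 and 9.691 kb of exon, had values above 0, while STING1, IRF3 and DHX58, with 3.850, 3.794 and 3.843 kb, had values below 0. RIGI, with 4.353 kb, rose and did not follow this order. With an offset for length, log2 fold changes were 0.27 for MAVS, 0.13 for EIF2AK2, 0.05 for ADAR, −0.28 for IRF3, −0.69 for DHX58 and −1.69 for STING1. RIGI was at 1.78. All 7 kept their sign, and STING1 was still called (adjusted p = 0.00216).

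Per kilobase of exon, the 10 genes fell into an abundant and a scarce set. In sensitive cells ADAR was highest, at 21.8 ± 1.30 CPM per kb (SD, n = 3), followed by STING1 at 13.0 ± 5.08, IRF3 at 9.80 ± 0.342, EIF2AK2 at 5.66 ± 0.640 and MAVS at 5.45 ± 0.971. STING1 and IRF3 overlapped, as did EIF2AK2 and MAVS. DHX58 was at 0.848 ± 0.244 CPM per kb, and CGAS (0.105) and RIGI (0.0639) each overlapped IFIH1 (0.0895), with the libraries of CGAS just above those of RIGI. In resistant cells STING1, at 3.69 ± 0.833 CPM per kb, moved from the second to the fifth place, below EIF2AK2, MAVS and IRF3 in every library. RIGI, at 0.208 ± 0.0615 CPM per kb, moved from the ninth to the seventh place, above CGAS and IFIH1 in every library. By the mean over all libraries, ADAR was above 92.1% of tested genes with a known length, while RIGI, CGAS and IFIH1 were above 5.88%, 3.27% and 2.54%.

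**Figure D3:**
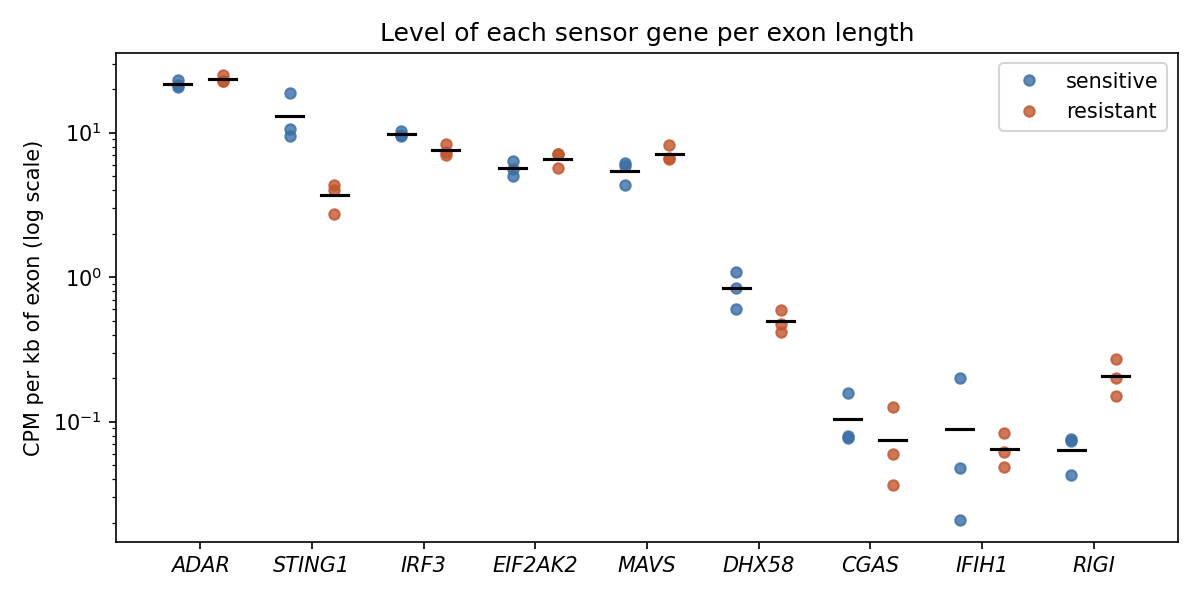
CPM per kilobase of exon on a log axis for 9 sensor genes in order of their sensitive mean, with each library as a point and group means as bars. TLR3 is left out because 4 libraries had no counts. ADAR, IRF3, EIF2AK2 and MAVS are at 4.34 CPM per kb or above in every library, and CGAS, IFIH1 and RIGI are at 0.273 or below.

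Genes around the sensors were taken from 9 lists, of which 141 genes outside the 10 had an ID and 99 were tested. In resistant cells 14 were higher (14.1%) and 17 lower (17.2%), beside 9.83% and 13.1% of all genes tested. The median log2 fold change of the 99 was −0.01. Of these calls, 7 higher and 14 lower genes were called whichever single library was left out. The number higher was 9 without sensitive replicate 2 and 7 when sensitive replicate 1 or 3, or resistant replicate 1 or 2, was left out. Over all genes tested, calls higher also went down in these runs, from 2054 to 1833 without sensitive replicate 3. They were 1062 and 1179 without sensitive replicate 1 or 2, and 1362 and 1051 without resistant replicate 1 or 2. Of the listed genes, 21 were higher and 27 lower without both libraries numbered 3. Over all genes, calls then went from 2054 higher and 2741 lower to 4645 and 5021. With all libraries, the counts called in each list below stand beside 9.83% higher and 13.1% lower of all genes tested.

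Cofactors of RNA sensing were mostly level. Of 10, 8 were tested, 1 rose and none fell, with a median of 0.07. ZC3HAV1, the antiviral zinc finger protein ZAP, which binds CpG-rich RNA and whose short form assists RIG-I, rose from 102 ± 14.2 to 182 ± 3.96 CPM (SD, n = 3 each; log2 fold change 0.83 ± 0.16 SE, edgeR adjusted p = 0.00453). TRIM25, the ubiquitin ligase linked to RIG-I and ZAP, measured 75.8 and 80.1 CPM (adjusted p = 0.804).

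The oligoadenylate synthetases, which make a short RNA messenger when they bind double-stranded RNA, were scarce in both groups. OAS1, OAS2 and OASL had 12, 4 and 8 counts over all libraries and were not tested. OAS3 measured 2.89 CPM in sensitive and 3.21 CPM in resistant cells (edgeR adjusted p = 0.842).

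Of 11 other nucleic acid sensors, 6 were tested, 1 rose and 2 fell, with a median of −1.31. NLRP1, an inflammasome sensor that also responds to double-stranded RNA, fell from 54.8 ± 14.8 to 13.3 ± 2.75 CPM (SD, n = 3 each; edgeR adjusted p = 2.86e-04). TLR7, an endosomal receptor for single-stranded RNA, fell from 127 counts to 4, which is 32.5-fold lower relative to TMM-scaled totals (95% counting interval 12.4 to 121, edgeR adjusted p = 9.76e-04). ZNFX1, a helicase that binds double-stranded RNA on mitochondria, rose from 26.2 ± 1.70 to 47.5 ± 2.32 CPM (adjusted p = 0.00207). TLR9, ZBP1 and PYHIN1 had no counts.

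Below the adaptors, 16 genes were tested, 1 rose, 2 fell and 13 did not pass, with a median of −0.08. TBK1, the kinase that phosphorylates IRF3, measured 60.2 and 70.5 CPM (edgeR adjusted p = 0.497). IKBKE, its close relative, fell 7.21-fold, from 12.2, 11.9 and 18.7 CPM in sensitive to 2.18, 2.16 and 1.57 CPM in resistant libraries (log2 fold change −2.85 ± 0.27 SE, adjusted p = 6.92e-05). Like STING1, IKBKE was highest in sensitive replicate 3 and lowest in resistant replicate 3. IRF1 fell from 12.9 ± 2.25 to 6.65 ± 0.398 CPM (SD, n = 3 each; adjusted p = 0.00711). IRF5 rose from 0.488 ± 0.144 to 1.29 ± 0.434 CPM (adjusted p = 0.0489), a call lost without each library except resistant replicate 3.

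Among 18 nucleases and inhibitors that limit sensing, 16 were tested, 3 rose and 3 fell, with a median of 0.02. NLRX1, a mitochondrial protein reported to restrain MAVS and STING signalling, rose from 0.928, 0.450 and 0.642 CPM to 4.64, 4.14 and 4.53 CPM, 6.52-fold (edgeR adjusted p = 4.24e-04). PCBP2, which promotes MAVS degradation, rose from 56.1 ± 4.26 to 114 ± 37.1 CPM (SD, n = 3 each; adjusted p = 0.00899), and STAU1, which binds double-stranded RNA, from 53.8 ± 4.68 to 115 ± 8.41 CPM (5.92e-04). RNASET2, a lysosomal ribonuclease, fell from 69.2 ± 9.19 to 23.1 ± 4.06 CPM (2.44e-04), and DNASE2 and RNF125 were the others that fell. The DNASE2 call (adjusted p = 0.0134) was lost when replicate 1 or 2 of the sensitive libraries (0.0502 and 0.0572) or replicate 2 of the resistant ones (0.0876) was left out. TREX1, the exonuclease that clears cytosolic DNA, is listed at 0 in every library. All 1515 of its exon bases are shared with ATRIP on the same strand, so its level is not known from these counts.

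Of 22 interferon genes listed, 20 had no counts in any library, IFNB1 and all 13 alpha genes listed among them. K562 is known to lack the type I interferon cluster on the short arm of chromosome 9. IFNL4 had 2 counts, both in a sensitive library. IFNK, a keratinocyte interferon gene outside the main cluster, measured 2.88, 2.70 and 1.61 CPM in sensitive and 10.3, 6.75 and 2.99 CPM in resistant libraries (log2 fold change 1.48 ± 0.43 SE, edgeR adjusted p = 0.0335). That call was lost without each library except resistant replicate 3.

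Of 30 interferon-stimulated genes, 25 were tested, 3 rose, 8 fell and 14 did not pass. Over all genes tested, 9.83% were higher and 13.1% lower. The median of the list was −0.44 beside 0.03 for all genes. IFIT3 fell from 5.65 ± 0.854 to 0.919 ± 0.281 CPM, IFITM1 from 159 ± 17.4 to 53.1 ± 14.3 CPM, and UBE2L6, of the ISG15 conjugation pathway, from 27.7 ± 11.1 to 6.66 ± 0.276 CPM (SD, n = 3 each; edgeR adjusted p of 3.76e-04, 5.29e-04 and 5.48e-04). IFITM2 fell from 50.9 ± 11.4 to 10.1 ± 4.26 CPM (8.13e-04), although IFITM genes are similar in sequence and their counts are uncertain. The 3 that rose were IFITM3 (7.20 to 29.8 CPM), LGALS3BP (6.08 to 26.5 CPM) and EPSTI1 (0.0844 to 0.536 CPM, on 9 and 61 counts). The EPSTI1 call was lost when sensitive replicate 1 or 3 (adjusted p of 0.149 and 0.0642) or resistant replicate 1 or 2 (0.103 and 0.117) was left out. BST2, RSAD2, CMPK2 and IFIT2 were the other genes that fell, IFIT2 from 183 counts to 4. The groups of CMPK2 overlapped, and its log2 fold change of −1.06 (adjusted p = 0.0361) went to −0.63 without sensitive replicate 3 (0.124). Its call also ended without sensitive replicate 1 (0.0682), resistant replicate 1 (0.106) or resistant replicate 2 (0.134), with limma-voom (0.0566) and with library totals (0.0505).

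On the supply side, 2 of 16 silencers of endogenous retroviruses passed the test. TRIM28, the corepressor that zinc finger proteins bring to retroviral sequences, rose from 264 ± 14.3 to 370 ± 7.99 CPM (SD, n = 3 each; edgeR adjusted p = 0.0495), a call lost without any 1 library. RESF1, a partner of SETDB1, fell from 160 ± 15.3 to 106 ± 8.28 CPM (0.0206). Leaving out replicate 1 or 3 of the sensitive or replicate 1 or 2 of the resistant libraries ended that call. SETDB1, the histone methyltransferase of this pathway, measured 64.3 and 63.8 CPM (0.963). Repeats themselves were not analysed here, and only genes with an annotated name stand for them. Of 14 genes of retroviral or retrotransposon origin, 9 were tested, 3 rose and none passed the test as lower, with a median of 0.13. The list summed to 164 to 223 CPM in sensitive and 121 to 187 CPM in resistant libraries. ERVH48-1 rose from 0.872 ± 0.0863 to 2.49 ± 1.49 CPM, ERVFRD-1 from 1.96 ± 0.353 to 4.84 ± 2.33 CPM and PEG10 from 0.154 ± 0.150 to 0.922 ± 0.351 CPM (adjusted p of 0.0353, 0.0431 and 0.0473). ERVH48-1 and ERVFRD-1 lost the call without each library except resistant replicate 3, and PEG10 when replicate 1 or 3 of the sensitive or replicate 1 or 2 of the resistant libraries was left out. The groups of ERVFRD-1 overlapped. ERV3-1, the most abundant of the list, measured 126 ± 35.1 and 76.3 ± 19.0 CPM with overlapping groups (adjusted p = 0.0644). ERVMER34-1 and RTL1 also had values below 0 that did not pass, and ERVW-1, ERVK3-1 and ERVK13-1 had values above 0 that did not pass.

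**Figure D4:**
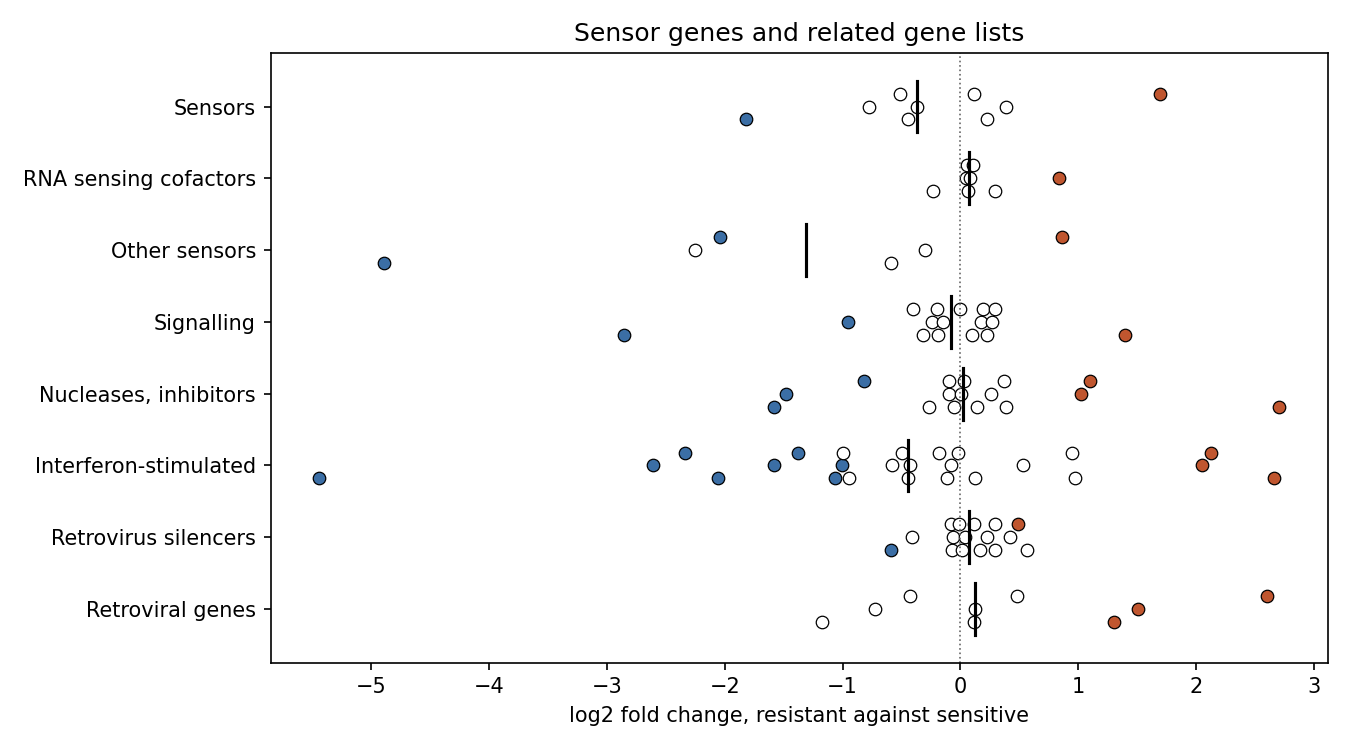
Log2 fold change, resistant against sensitive, of each tested gene in the sensor set and 7 related lists, with a black bar at each median and vertical offsets only to separate points. Filled points have an edgeR adjusted p below 0.05 (blue lower, orange higher). The medians of most lists lie between −0.44 and 0.13, and single genes such as TLR7, IKBKE and NLRX1 lie far from them.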

How the data were processed

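The file holds gene-level counts as deposited by the authors: whole numbers, not normalized, by Ensembl ID. The RNA was DNase-treated total RNA, sequenced in pairs from a stranded kit with ribosomal RNA removed, per the labels' protocols. The submitters' processing notes name, with GRCh38, Trimmomatic 0.39, HISAT2 2.2.1, Subread 2.0.3 and its featureCounts. No source used here gives the annotation release or the strand setting. The replicates are labelled biological, but whether cultures were separate is not said, so a p-value reflects variation among these libraries, which may be technical. Resistance cannot be told apart from other changes in the derived cells. The genes and lists were chosen with earlier results of these data known.

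Symbols matched 61369 of 61487 IDs, and positions and exon lengths are from GENCODE 29 (58312 IDs). Of 186 list entries, 1 had no ID. The values of 1 listed gene are not reported here, though counts over all lists include it. edgeR 4.0.16 (R 4.3.3) was run with filterByExpr, TMM factors and the robust quasi-likelihood test, two-sided. CPM values use TMM-scaled totals. The SE is the log2 fold change divided by the square root of F, and the interval uses the fit's degrees of freedom. Both are approximate. Counting intervals are exact binomial at 95%. The genes named are the 10 sensors, up to 4 called genes per list with the smallest adjusted p, interferon genes with counts and genes that overlap a sensor with a mean of at least 10 counts. TRIM25, TICAM1, OAS3, TBK1, SETDB1, IFITM3, LGALS3BP, EPSTI1, BST2, RSAD2, CMPK2, IFIT2, DNASE2, RNF125, ARL14EPP1, genes with few or no counts and the markers were named outside this rule, after their values were seen. So were ERV3-1, ERVW-1, ERVMER34-1, ERVK3-1, ERVK13-1, RTL1 and ATRIP. Protein lengths and identities were not compared. Alternatives were DESeq2 1.42.0, limma-voom (limma 3.58.1), other scalings and filters, removal of abundant features, a replicate block, libraries left out, stricter thresholds and a smooth length offset (span 0.3). The steps were tested on simulated data.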

Additional observations from a re-analysis of the deposited data

How the results depend on the processing

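Of 9 tested sensor genes, 8 kept their direction under every alternative run, with STING1 from −2.02 to −1.29 and RIGI from 1.46 to 1.86. IFIH1, between −0.92 and 0.87 without single libraries, reversed to 0.14 with limma-voom and to 0.87 without sensitive replicate 2, and the cause was not tested. The number of sensors higher went from 1 to 0 with at least 50 counts in 3 libraries, which removed RIGI from the test, with an adjusted p below 0.01 and with glmTreat against 1.5-fold, and ranged from 0 to 1 when single libraries were left out. The number lower ranged from 1 to 2 without single libraries and was 3 without both libraries numbered 3. Of the other genes, 7 were higher at an adjusted p below 0.01 and 4 with glmTreat. Over all genes, 938 and 840 were higher in these runs, beside 2054 in the main fit. Without single libraries 7 to 16 of the other genes were higher and 14 to 19 lower, beside 1051 to 3327 and 1677 to 3718 over all genes. Without both libraries numbered 3, 27 of the other genes were lower, beside 5021 over all genes. Library totals alone moved the median of all genes from 0.03 to 0.20 and upper quartile factors to 0.11. Over all genes totals gave 3041 higher and 2118 lower calls, beside 2054 and 2741 with TMM factors, and among the other genes 19 and 15, beside 14 and 17. RIGI, with 134 counts, IFIH1, with 86, and CGAS, with 85, are limited by depth.

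Replicate numbers are shared between the groups, but correlations of deviations for numbers 1, 2 and 3 were 0.202, 0.0850 and 0.299, and sensitive replicate 2 correlated best with resistant replicate 1 (0.230). Both replicates 3 deviated together, but number 2 did not reach 0.1, so the numbers were not taken to pair the libraries. With the replicate block, 2 sensors were higher, RIGI and MAVS (0.40, adjusted p = 0.0473), 1 was lower, and calls over all genes went to 2859 higher and 3582 lower.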
